A study of Homo sapiens with 6 samples.

Results

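The genes described here are the semaphorins, the plexins, the Eph receptors and the ephrins, 4 families of cell guidance ligands and receptors, in a human B cell lymphoma line. They were chosen by gene symbol, as the rows of the read count table whose symbol starts with SEMA, PLXN, EPHA, EPHB, EFNA or EFNB followed by a digit or by a letter and a digit. This gave 51 of 23250 genes, made up of 20 semaphorins, 9 plexins, 14 Eph receptors and 8 ephrins. RNA was sequenced from OCI-LY1, an established human lymphoma line (diffuse large B cell type) in which the endogenous transcriptional repressor BCL6 had been depleted with siRNA. The RD2-mutant rescue (3 libraries, labelled RD1 to RD3) then received an introduced BCL6 that carried a mutation in RD2, its second repression domain. The WT rescue (3 libraries, labelled WT1 to WT3) received an introduced wild-type BCL6. Both rescues shared the siRNA and the cell line, no library lacked a rescue, and the labels name no batch and do not say whether separate cultures were used, so all p-values here rest on variation among these 6 libraries alone, which could be technical.

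Semaphorins are secreted or membrane-bound ligands whose main receptors are the plexins, which carry a domain inside the cell that acts on small GTPases of the RAS family and so alters adhesion and the cytoskeleton. Secreted class 3 semaphorins mostly need a neuropilin as co-receptor, whereas membrane-bound class 4 semaphorins bind B-type plexins and, for some of them, plexin D1. Eph receptors are receptor tyrosine kinases that bind ephrins on a neighbouring cell, and both cells can receive a signal. A-type ephrins are held in the membrane by a lipid anchor and mostly bind EphA receptors, while B-type ephrins span the membrane and mostly bind EphB receptors. In mouse germinal centres, ephrin-B1 and plexin-B2 on B cells take part in the contact with T follicular helper cells.

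The libraries held 26298456 to 26966183 counts in the RD2-mutant rescue and 26477404 to 27574867 in the WT rescue. Levels are given in CPM, counts scaled to library size after TMM normalization, and 3 counts in a library, taken as the detection floor, equal 0.109 to 0.115 CPM (counting error only). BCL6 transcript, from the introduced and any remaining endogenous copy together, was 1.31-fold lower in the RD2-mutant rescue, at 520 ± 8.71 CPM against 679 ± 24.3 CPM in the WT rescue (SD, n = 3 each; edgeR adjusted p = 7.90e-10). Of 12 germinal centre B cell markers, 10 were at or above 1 CPM in every library, and SERPINA9 and LMO2 averaged under 1 CPM. Summed T cell markers reached at most 0.263 CPM in the RD2-mutant rescue and 0.219 CPM in the WT rescue, with CD3E and CD2 at 0. Summed epithelial markers were 3.47 to 4.06 CPM in the RD2-mutant rescue and 15.6 to 16.8 CPM in the WT rescue, nearly all of it EPCAM, with KRT19 and KRT5 at 0 in all libraries. Summed stromal and endothelial markers were 0.714 to 0.969 CPM in the RD2-mutant rescue and 1.61 to 1.90 CPM in the WT rescue, mostly PECAM1, with COL3A1 and CDH5 at 0, and summed myeloid markers were 2.98 to 4.29 CPM in the RD2-mutant rescue and 2.05 to 2.63 CPM in the WT rescue, mostly CD68. The groups thus differed in BCL6 transcript level as well as in the RD2 mutation. The part of this BCL6 difference, and of the marker differences, in the results below was not tested. In bulk RNA, fewer cells expressing a gene and less of its RNA per cell cannot be told apart. Library 2 of the RD2-mutant rescue stood somewhat apart, with a chi-square statistic per degree of freedom of 5.47 and 4.36 against the other libraries of its group, compared with 1.75 between those. In the WT rescue the statistic was 3.01 between libraries 1 and 2, 1.91 between 2 and 3, and 1.60 between 1 and 3.

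Of the 51 genes, 19 were expressed, defined as a mean of at least 1 CPM over all 6 libraries, and 32 were not. The expressed set held 6 semaphorins, 6 plexins, 2 Eph receptors and 5 ephrins. Another 5 genes passed the filter on low counts but averaged under 1 CPM, namely SEMA3F, SEMA4G, SEMA6B, SEMA7A and EFNB3. Nearest to the limit were SEMA4G below it, with a mean of 0.963 CPM over all libraries, and SEMA6C above it, with 1.60 CPM. A further 19 genes had some counts but too few to test, never more than 16 in a library, and 8 had 0 counts in all libraries. These 8 were EPHA1, EPHA4, EPHA5, EPHA6, EPHA7, EPHA8, EPHB3 and SEMA3C.

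In the RD2-mutant rescue the ligand gene EFNA5 and the receptor gene PLXND1 were more than 6-fold higher, 4 of 6 expressed plexins rose, and the abundant semaphorins SEMA4A and SEMA4B moved in opposite directions. Among the 24 that were tested, 11 rose, 5 fell and 8 stayed above the threshold (edgeR quasi-likelihood test, Benjamini-Hochberg adjusted over 12406 genes, threshold 0.05), next to 35.4% of all tested genes called higher and 34.8% called lower. EFNB3 passed the filter through the RD2-mutant libraries alone, so it had to differ between the groups to be tested at all, and with it the count of 11 is no support for a direction. Among the 19 expressed genes, whose choice does not use the groups, 10 rose, 5 fell and 4 did not pass. These 15 called genes are 78.9% of the expressed ones, a share near that of the 11323 genes at that level, of which 72.6% were called, 35.8% higher and 36.8% lower. The median log2 fold change of the expressed genes was 0.36 and its median size 0.77, next to -0.00017 and 0.27 for all genes at that level. A change of at least 2-fold was called for 4 expressed genes that rose and 2 that fell, 31.6% of 19, next to 7.57% of all genes at that level (4.80% higher and 2.77% lower). Over all tested genes this share was 9.51%, made up of 6.30% higher and 3.22% lower. The groups did not overlap for 15 of the 19 expressed genes, next to 74.4% of genes at that level and 72.4% of all tested genes. The genes were chosen with earlier results of these data known, so these counts are descriptions.

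**Figure D1:**
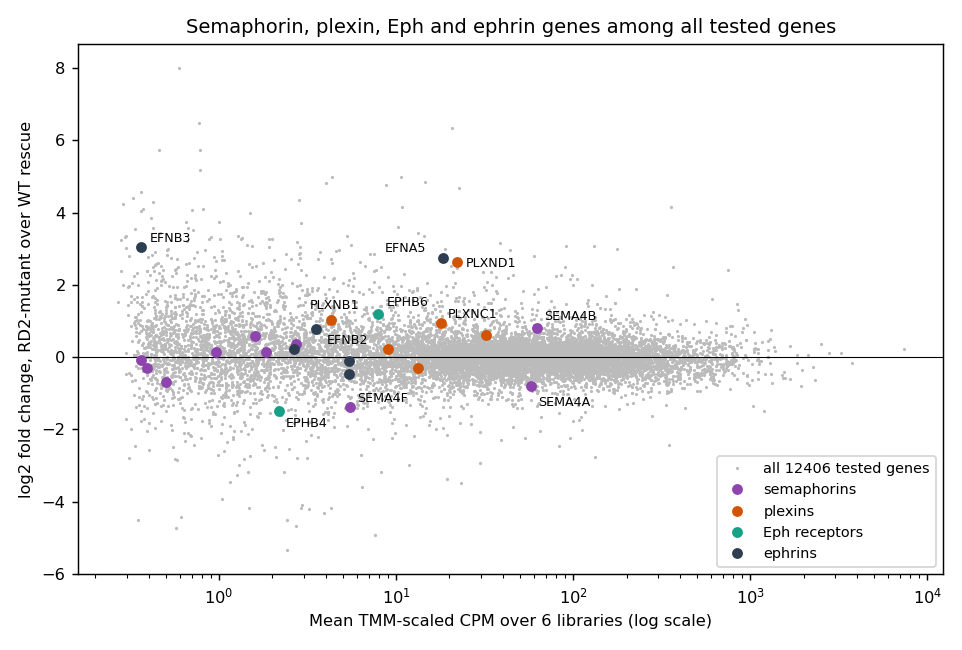
Each grey point is a tested gene, placed by its mean TMM-scaled CPM over all 6 libraries (log axis) and its log2 fold change, RD2-mutant over WT rescue; coloured points are the 24 tested semaphorin, plexin, Eph and ephrin genes, labelled where the change is at least 0.75 in size. EFNA5 at 2.75 and PLXND1 at 2.64 lie above most genes at their level, while SEMA4A and SEMA4B lie on opposite sides of 0 at -0.80 and 0.82.

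The regions around the annotated starts of the genes with the largest changes are shown because BCL6 is a repressor that binds DNA near gene starts, although no binding was measured here. Sequences are from RefSeq on build GRCh38.p14, not the build used for the counts, and run from 250 bases before to 50 bases after a start, 5′ to 3′ on the gene's strand. Such windows were found for 46 of the 51 genes, 73 windows in all, since some genes have several starts. Printed are the 5 expressed genes that changed at least 2-fold and have 1 window each, with CpG dinucleotides, the sites of DNA methylation, in capitals. PLXNB1, the other expressed gene with such a change (log2 1.02), does not have exactly 1 window and is left out here. EFNA5 lies at chr5:107670888-107671187 (minus strand), PLXND1 at chr3:129606627-129606926 (minus), EPHB6 at chr7:142862506-142862805 (plus), EPHB4 at chr7:100827474-100827773 (minus) and SEMA4F at chr2:74653997-74654296 (plus).
EFNA5: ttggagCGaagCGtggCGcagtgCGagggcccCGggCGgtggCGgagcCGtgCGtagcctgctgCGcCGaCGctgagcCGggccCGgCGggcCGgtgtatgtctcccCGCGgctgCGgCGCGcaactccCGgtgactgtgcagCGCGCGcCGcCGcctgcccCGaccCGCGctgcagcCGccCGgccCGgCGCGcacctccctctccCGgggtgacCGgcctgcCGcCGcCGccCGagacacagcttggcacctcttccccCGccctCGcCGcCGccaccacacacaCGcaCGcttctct
PLXND1: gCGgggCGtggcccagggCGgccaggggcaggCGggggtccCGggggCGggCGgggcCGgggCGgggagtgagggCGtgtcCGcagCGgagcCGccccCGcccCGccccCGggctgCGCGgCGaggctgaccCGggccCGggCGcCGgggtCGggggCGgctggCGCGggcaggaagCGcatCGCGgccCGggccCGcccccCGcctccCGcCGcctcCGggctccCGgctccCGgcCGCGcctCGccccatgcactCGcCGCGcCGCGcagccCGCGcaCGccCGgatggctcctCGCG
EPHB6: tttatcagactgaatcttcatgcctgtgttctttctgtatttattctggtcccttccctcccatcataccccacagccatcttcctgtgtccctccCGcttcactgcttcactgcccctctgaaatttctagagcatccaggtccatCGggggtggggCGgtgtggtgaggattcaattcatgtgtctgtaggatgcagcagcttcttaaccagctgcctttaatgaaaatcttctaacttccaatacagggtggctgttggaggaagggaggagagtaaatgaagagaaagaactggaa
EPHB4: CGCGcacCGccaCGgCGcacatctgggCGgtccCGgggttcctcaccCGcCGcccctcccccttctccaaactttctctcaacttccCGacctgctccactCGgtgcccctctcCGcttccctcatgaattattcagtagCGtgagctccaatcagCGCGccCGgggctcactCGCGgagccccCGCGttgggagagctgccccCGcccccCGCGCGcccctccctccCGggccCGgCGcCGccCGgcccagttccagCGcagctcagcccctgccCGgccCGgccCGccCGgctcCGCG
SEMA4F: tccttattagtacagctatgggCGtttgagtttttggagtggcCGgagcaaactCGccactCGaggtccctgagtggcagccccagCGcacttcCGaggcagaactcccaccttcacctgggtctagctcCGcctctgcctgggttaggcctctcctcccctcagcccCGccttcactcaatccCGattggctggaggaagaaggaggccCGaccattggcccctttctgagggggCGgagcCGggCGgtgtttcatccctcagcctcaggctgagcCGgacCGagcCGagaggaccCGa

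The CpG count was 47 in the EFNA5 window, 52 in PLXND1, 3 in EPHB6, 36 in EPHB4 and 17 in SEMA4F, with a median of 14 over the 35116 windows of the table. CpG-dense and CpG-poor starts thus stood on the same side of the comparison, EFNA5 and PLXND1 with EPHB6 among the genes that rose. The motif TTCCTNGAA, a form of the element bound by BCL6, was searched on both strands and occurred in 1.56% of all windows and in 1 of the 73, a window of SEMA3E, which had at most 2 counts in a library. The looser form TTCNNNGAA, which contains the first, occurred in 7.66% of all windows and in 4 of the 73, those of EFNA3, EPHA3, EPHA5 and SEMA3E. EFNA3, at chr1:155078587-155078886 (plus strand), is the expressed gene among them, and its match, in capitals, starts at position -229 relative to the annotated start. None of the 5 windows above holds either form, which says only that these letters are not in these windows.
EFNA3: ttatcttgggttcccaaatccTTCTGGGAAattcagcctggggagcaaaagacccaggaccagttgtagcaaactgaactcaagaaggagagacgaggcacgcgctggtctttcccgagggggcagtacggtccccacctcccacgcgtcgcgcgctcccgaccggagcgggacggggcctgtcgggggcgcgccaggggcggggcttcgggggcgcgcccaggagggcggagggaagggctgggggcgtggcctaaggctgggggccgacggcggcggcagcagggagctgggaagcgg

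Among the semaphorins, class 4 genes carried nearly all reads, with summed levels of 129 ± 5.20 CPM in the RD2-mutant rescue and 130.1 ± 4.49 CPM in the WT rescue. The 7 class 3 genes together had 14 to 19 counts in RD2-mutant libraries and 14 to 22 in WT libraries, and the 2 class 5 genes had at most 1 count in any library. SEMA4A, a membrane semaphorin of B cells and dendritic cells that promotes T cell priming in mice, was at 40.9, 41.3 and 44.4 CPM in the RD2-mutant rescue and 73.7, 70.3 and 76.2 CPM in the WT rescue. All 3 RD2-mutant libraries lay below all WT libraries, and SEMA4A fell 1.74-fold (log2 -0.80, SE 0.046; edgeR adjusted p = 2.26e-12). SEMA4B, another membrane semaphorin, was at 77.8, 78.2 and 83.0 CPM in the RD2-mutant rescue and 45.9, 43.9 and 46.0 CPM in the WT rescue. Here every RD2-mutant library lay above every WT library, a 1.76-fold rise (log2 0.82, SE 0.043; edgeR adjusted p = 4.76e-13). Per kilobase of the longest coding transcript, SEMA4B was the higher of the pair in the RD2-mutant rescue, at 20.9 CPM per kb next to 12.8 for SEMA4A, and SEMA4A the higher in the WT rescue, at 22.2 next to 11.9 for SEMA4B. Since both moved by similar amounts in opposite directions, the summed level of all 20 semaphorins was 134 ± 5.35 CPM in the RD2-mutant rescue and 135 ± 4.67 CPM in the WT rescue, a difference smaller than the spread between libraries, and one whose sign turned with library size scaling.

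The largest fall among the semaphorins that passed the test was that of SEMA4F, a membrane semaphorin studied mainly in the nervous system. It was at 3.06, 3.02 and 3.01 CPM in the RD2-mutant rescue and 8.50, 7.31 and 7.997 CPM in the WT rescue. The groups were well apart and the RD2-mutant libraries nearly equal, a 2.62-fold fall (log2 -1.39, SE 0.11; edgeR adjusted p = 3.70e-10). SEMA4D, also called CD100, binds plexin B1 and, on B cells, CD72, and it was scarce, at 3.02, 2.76 and 3.42 CPM in the RD2-mutant rescue and 2.37, 2.53 and 2.27 CPM in the WT rescue. The groups did not overlap and SEMA4D rose 1.28-fold (log2 0.36, SE 0.14; edgeR adjusted p = 0.0316), but the call was lost without RD2-mutant library 1 (adjusted p = 0.0547) or 3 (0.147) and without WT library 1 (0.0738) or 3 (0.0958). It was also lost by DESeq2 (adjusted p = 0.176) and when the change had to exceed 1.2-fold (0.228), and the adjusted p ranged from 0.0171 to 0.228 over 14 alternatives. SEMA6C was at 2.35, 1.42 and 2.03 CPM in the RD2-mutant rescue and 1.28, 1.30 and 1.25 CPM in the WT rescue. It rose 1.51-fold without overlap (log2 0.60, SE 0.20; edgeR adjusted p = 0.0123), a call lost without RD2-mutant library 1 (adjusted p = 0.0911), by DESeq2 (0.0815) and when the change had to exceed 1.2-fold (0.0549; range 0.000933 to 0.0911 over 14 alternatives). SEMA6A, a transmembrane ligand of A-type plexins, was at 2.20, 1.71 and 1.92 CPM in the RD2-mutant rescue and 1.86, 1.53 and 1.83 CPM in the WT rescue, and did not pass the test (log2 0.16, 95% interval -0.21 to 0.52; edgeR adjusted p = 0.433).

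The low semaphorins did not pass the test. SEMA7A, a lipid-anchored ligand of plexin C1 and of integrins, had 11, 8 and 12 counts in the RD2-mutant rescue and 13, 19 and 18 in the WT rescue. Its groups did not overlap, but the adjusted p was 0.0638 (edgeR; log2 -0.67, SE 0.32), and it passed only without WT library 1 (adjusted p = 0.0399, range 0.0399 to 0.254 over 13 alternatives). SEMA3F, a secreted ligand that acts through neuropilin 2, averaged 0.349 CPM in the RD2-mutant rescue and 0.431 CPM in the WT rescue (edgeR adjusted p = 0.471). SEMA6B averaged 0.349 CPM in the RD2-mutant rescue and 0.372 CPM in the WT rescue (edgeR adjusted p = 0.843). SEMA4G averaged 1.01 CPM in the RD2-mutant rescue and 0.915 CPM in the WT rescue (edgeR adjusted p = 0.596). By the GENCODE v29 annotation 16.8% of the exonic bases of SEMA4G also lie in exons of MRPL43 on the opposite strand, and since the strand setting of the counts is not known, its reads are uncertain. Too few reads to test were found for SEMA4C, the T follicular helper cell ligand of plexin B2 in mice, with 5, 5 and 2 counts in the RD2-mutant rescue and 11, 3 and 3 in the WT rescue. SEMA3A, SEMA3B, SEMA3D, SEMA3E, SEMA5A, SEMA5B and SEMA6D never exceeded 2 counts in a library, and SEMA3G had 10, 4 and 1 counts in the RD2-mutant rescue and 4, 3 and 4 in the WT rescue.

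**Figure D2:**
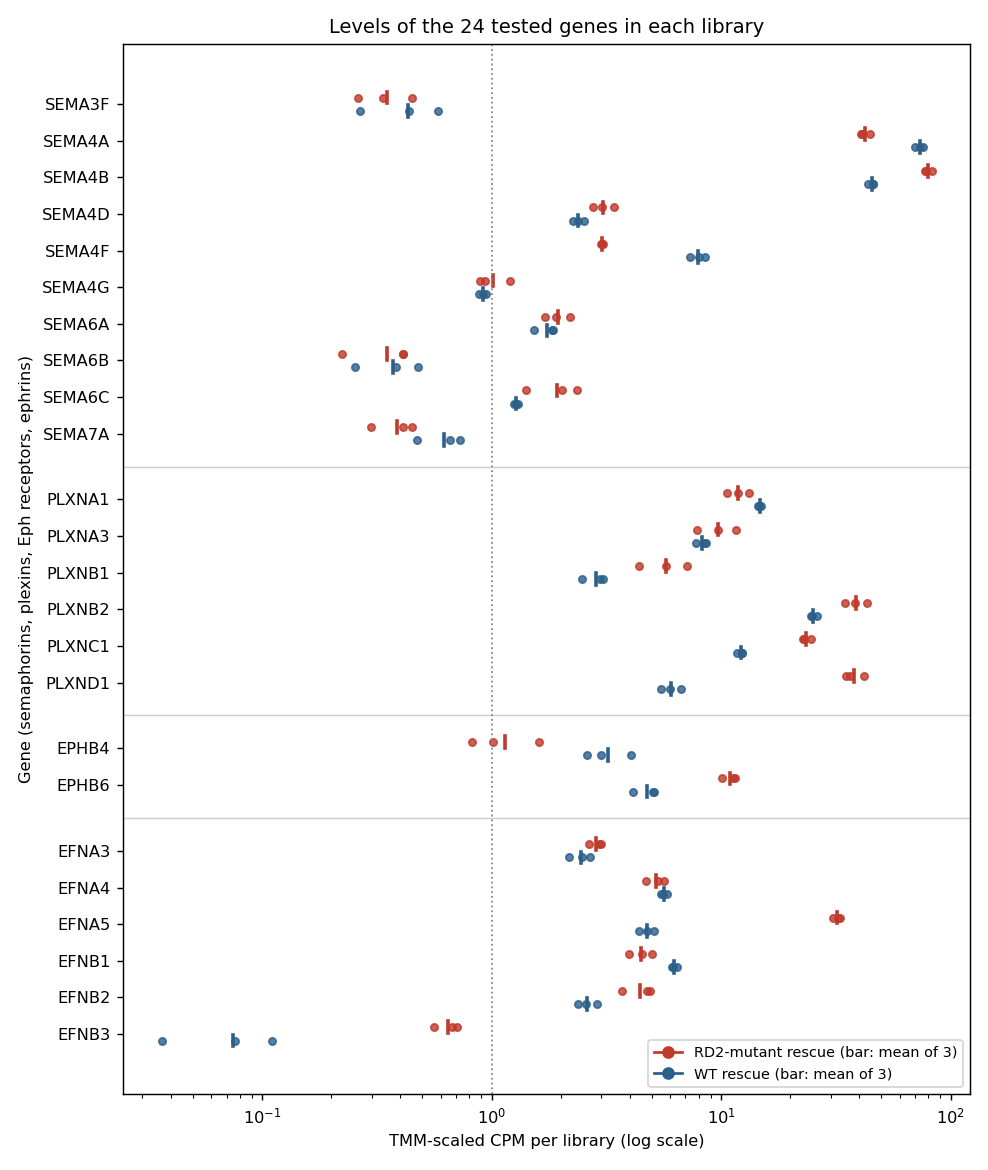
Points are the TMM-scaled CPM of each library on a log axis for the 24 tested genes, with the RD2-mutant rescue in red above the WT rescue in blue for each gene, short bars at the group means and a dotted line at 1 CPM. The groups lie far apart for EFNA5 (mean 31.96 CPM in the RD2-mutant rescue, 4.75 CPM in the WT rescue) and PLXND1 (37.8 CPM in the RD2-mutant rescue, 6.04 CPM in the WT rescue), and overlap for genes such as EFNA4 and SEMA6A.

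Of 9 plexin genes 6 were expressed, of which 4 rose, PLXNA1 fell and PLXNA3 did not pass the test, next to 35.8% of genes at that level called higher and 36.8% lower. The summed level of all 9 plexins was 127.6 ± 8.90 CPM in the RD2-mutant rescue and 69.4 ± 1.79 CPM in the WT rescue. PLXND1, a receptor for semaphorin 3E and semaphorin 4A that is best known from blood vessel patterning, was at 36.6, 35.1 and 41.8 CPM in the RD2-mutant rescue and 5.98, 5.47 and 6.68 CPM in the WT rescue. The groups were far apart, and PLXND1 rose 6.25-fold (log2 2.64, SE 0.083; edgeR adjusted p = 5.62e-16). Of its ligands, SEMA4A fell as described above and SEMA3E had 2 counts in a single WT library.

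PLXNC1, the receptor of semaphorin 7A, was at 22.8, 24.6 and 23.0 CPM in the RD2-mutant rescue and 12.4, 11.8 and 12.4 CPM in the WT rescue. Without overlap it rose 1.93-fold (log2 0.95, SE 0.065; edgeR adjusted p = 3.86e-11). PLXNB1, a receptor of SEMA4D, was at 5.79, 4.396 and 7.14 CPM in the RD2-mutant rescue and 3.06, 2.49 and 2.97 CPM in the WT rescue. Its RD2-mutant libraries were spread but all above the WT libraries, a 2.03-fold rise (log2 1.02, SE 0.16; edgeR adjusted p = 2.90e-05). PLXNB2, which binds several class 4 semaphorins, was at 43.3, 34.6 and 38.4 CPM in the RD2-mutant rescue and 26.1, 24.7 and 24.8 CPM in the WT rescue, and rose 1.54-fold without overlap (log2 0.62, SE 0.069; edgeR adjusted p = 5.63e-07). Per kilobase, PLXNB2 was the most abundant plexin transcript in both rescues, at 6.07 CPM per kb in the RD2-mutant rescue and 3.95 in the WT rescue. PLXND1 followed in the RD2-mutant rescue at 5.33 CPM per kb, against 0.852 in the WT rescue, where PLXNC1 (1.66) and PLXNA1 (1.62) ranked above it.

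A-type plexins transduce class 3 semaphorins together with neuropilins and bind class 6 semaphorins directly. PLXNA1 was at 13.2, 10.7 and 11.8 CPM in the RD2-mutant rescue and 14.9, 14.5 and 14.7 CPM in the WT rescue. The groups did not overlap, and PLXNA1 fell 1.24-fold (log2 -0.31, SE 0.079; edgeR adjusted p = 0.00174), but it did not pass when the change had to exceed 1.2-fold (glmTreat in edgeR, adjusted p = 0.255, range 5.64e-05 to 0.255 over 14 alternatives). PLXNA3 was at 9.70, 7.90 and 11.6 CPM in the RD2-mutant rescue and 8.57, 8.46 and 7.78 CPM in the WT rescue, with overlap (log2 0.24, SE 0.12; edgeR adjusted p = 0.0767). RD2-mutant library 2 was the lowest of its group for 5 of the 6 expressed plexins, all but PLXNC1. Without that library PLXNA3 passed (log2 0.37, edgeR adjusted p = 0.00104), as it did with no filter on low counts (0.0257). Without RD2-mutant library 3, its highest, PLXNA3 was at log2 0.089 (edgeR adjusted p = 0.476). Over 14 alternatives its log2 value ranged from 0.089 to 0.37 and its adjusted p from 0.00104 to 0.594. The other expressed plexins kept their calls without RD2-mutant library 2. Their log2 values were then -0.23 for PLXNA1, 1.18 for PLXNB1, 0.70 for PLXNB2, 0.91 for PLXNC1 and 2.69 for PLXND1. PLXNA2, PLXNA4 and PLXNB3 never exceeded 3 counts in a library.

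Eph receptor transcripts were few. The 9 EphA genes together had 9, 17 and 9 counts in the RD2-mutant libraries and 19, 12 and 18 in the WT libraries, and no EphA gene could be tested. Over all 6 libraries most of these counts were from EPHA10, which encodes a receptor without kinase activity and had 4, 7 and 4 counts in the RD2-mutant rescue and 15, 6 and 16 in the WT rescue. EPHA2 and EPHA3 had at most 6 counts in a library. Of the 5 EphB genes only EPHB6 and EPHB4 were expressed, and they moved in opposite directions.

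EPHB6, a receptor whose kinase domain is inactive and which is known from T cells, was at 11.5, 10.1 and 11.3 CPM in the RD2-mutant rescue and 5.03, 5.09 and 4.15 CPM in the WT rescue. The groups were well apart, a 2.31-fold rise (log2 1.21, SE 0.10; edgeR adjusted p = 8.34e-10). EPHB4, an active receptor kinase whose main ligand is ephrin-B2, had 43, 22 and 27 counts in the RD2-mutant rescue and 82, 68 and 110 in the WT rescue. That is 1.60, 0.820 and 1.01 CPM in the RD2-mutant rescue and 2.99, 2.60 and 4.03 CPM in the WT rescue, without overlap, and a 2.80-fold fall (log2 -1.48, SE 0.22; edgeR adjusted p = 1.23e-05). EPHB1 had at most 4 counts and EPHB2 at most 1 count in a library. The summed level of the Eph receptors, 12.6 ± 0.891 CPM in the RD2-mutant rescue and 8.62 ± 0.425 CPM in the WT rescue, followed EPHB6, which held 74.0% of their counts.

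Of the ephrins, EFNA5 had the largest change among those expressed. The gene encodes a lipid-anchored ligand that binds EphA receptors and also EphB2. EFNA5 was at 30.6, 32.9 and 32.4 CPM in the RD2-mutant rescue and 4.38, 5.09 and 4.77 CPM in the WT rescue. The RD2-mutant libraries were close to each other and far above the WT libraries, a 6.74-fold rise (log2 2.75, SE 0.075; edgeR adjusted p = 1.06e-17). Its EphA and EphB2 receptors had the low counts given above, too few to test. The other expressed A-type ephrins did not pass the test. EFNA3 was at 2.99, 2.94 and 2.67 CPM in the RD2-mutant rescue and 2.48, 2.18 and 2.68 CPM in the WT rescue (log2 0.23, 95% interval -0.07 to 0.53; edgeR adjusted p = 0.168). EFNA4 was at 4.70, 5.62 and 5.34 CPM in the RD2-mutant rescue and 5.84, 5.47 and 5.61 CPM in the WT rescue (log2 -0.11, 95% interval -0.33 to 0.11; edgeR adjusted p = 0.352). Both overlapped between the groups, and a readthrough gene of the GENCODE v29 annotation covers 47.9% of the exonic bases of EFNA3 and 15.0% of those of EFNA4, so reads may be shared. EFNA1 had at most 6 counts and EFNA2 at most 1 count in a library.

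B-type ephrins span the membrane and signal into the cell that carries them. EFNB1 was at 4.52, 3.99 and 4.997 CPM in the RD2-mutant rescue and 6.20, 6.12 and 6.46 CPM in the WT rescue. The groups did not overlap, and EFNB1 fell 1.39-fold (log2 -0.48, SE 0.11; edgeR adjusted p = 0.000569). EFNB2, the ligand of EphB4, was at 3.70, 4.88 and 4.77 CPM in the RD2-mutant rescue and 2.37, 2.87 and 2.57 CPM in the WT rescue, and rose 1.71-fold without overlap (log2 0.77, SE 0.14; edgeR adjusted p = 5.59e-05). An antisense gene of the annotation shares 26.01% of its exonic bases, so without the strand setting part of the EFNB2 reads is uncertain. EFNB3 had 18, 19 and 15 counts in the RD2-mutant rescue and 1, 2 and 3 in the WT rescue. Summed, these 52 and 6 counts give a ratio of 8.73 with an exact 95% counting interval of 3.75 to 24.9, and the fitted log2 fold change was 3.05 (SE 0.45; edgeR adjusted p = 3.82e-06). This is a description, since the gene passed the filter through the RD2-mutant libraries alone, and it stayed below 1 CPM in all libraries.

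The ligand and receptor of one pair did not always move together. EFNB2 rose while its receptor EPHB4 fell, SEMA4A fell while its receptor PLXND1 rose, and SEMA4D and PLXNB1 both rose. CD72, which SEMA4D also binds, rose 2.05-fold, and PLXNC1 rose while its ligand SEMA7A did not pass the test. These pairs are a selection, not all possible pairs, so they give no count of pairs that moved together. The SEMA4D call was lost in 6 of 14 alternatives, and part of the EFNB2 reads is uncertain, as given above. Within the expressed B-type ephrins EFNB1 fell while EFNB2 rose, and the summed level of all B-type ephrins was 9.60 ± 0.725 CPM in the RD2-mutant rescue and 8.94 ± 0.287 CPM in the WT rescue. A-type ephrins summed to 40.2 ± 1.55 CPM in the RD2-mutant rescue and 12.9 ± 0.152 CPM in the WT rescue.

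**Figure D3:**
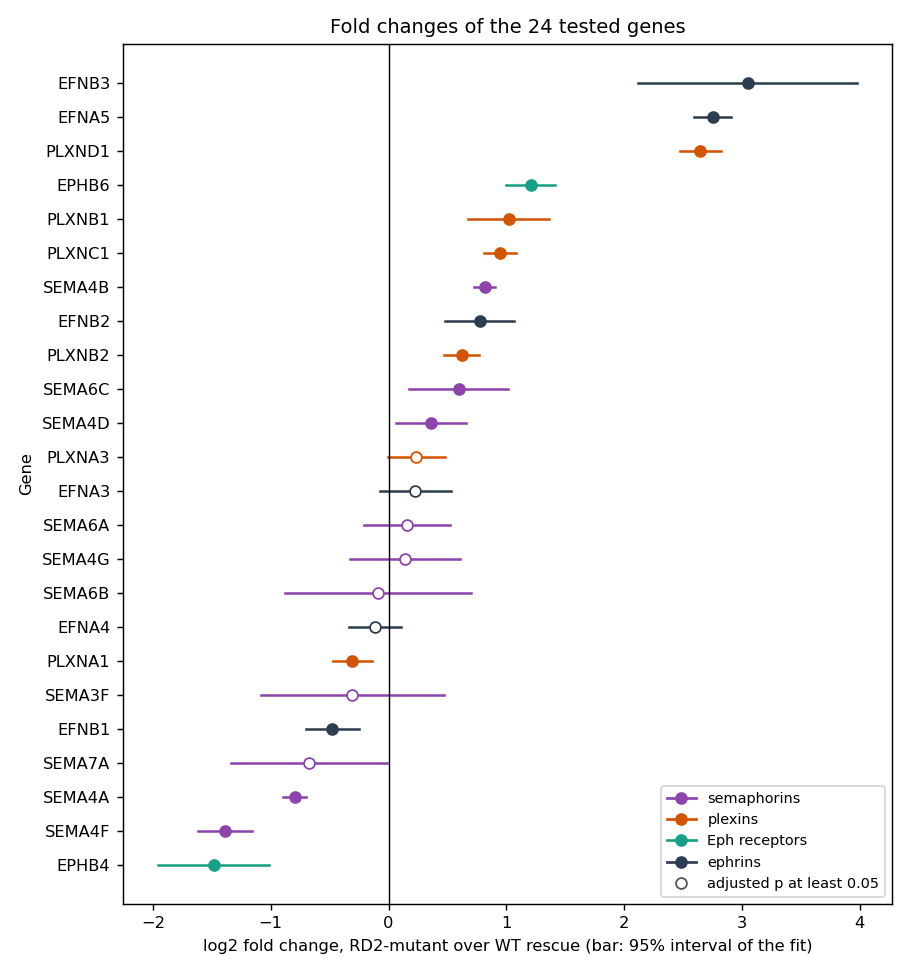
Points are log2 fold changes, RD2-mutant over WT rescue, for the 24 tested genes in order of size, with 95% intervals from the edgeR fit; colours give the family and open points did not pass the test. EFNB3, EFNA5 and PLXND1 lie highest at 3.05, 2.75 and 2.64, and SEMA4F and EPHB4 lowest at -1.39 and -1.48.

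Summed over each family, the RD2-mutant rescue held more plexin and ephrin transcript and about as much semaphorin transcript as the WT rescue. The ratio of the summed levels, RD2-mutant over WT rescue, was 1.84 for plexins, 2.28 for ephrins, 1.46 for Eph receptors and 0.997 for semaphorins. The ephrin sums were 47.4, 51.1 and 51.0 CPM in the RD2-mutant rescue and 21.5, 21.9 and 22.2 CPM in the WT rescue, and EFNA5 held 51.1% of all ephrin counts. Without the most abundant gene the difference in mean sums (RD2-mutant minus WT rescue) was 44.7 CPM in place of 58.2 for plexins (without PLXNB2), 0.757 in place of 27.97 for ephrins (without EFNA5), and -2.24 in place of 3.97 for Eph receptors (without EPHB6). PLXND1, whose share was computed after its values were seen, held 31.8 of the 58.2 CPM, and the rest of the plexins 26.4 CPM.

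**Figure D4:**
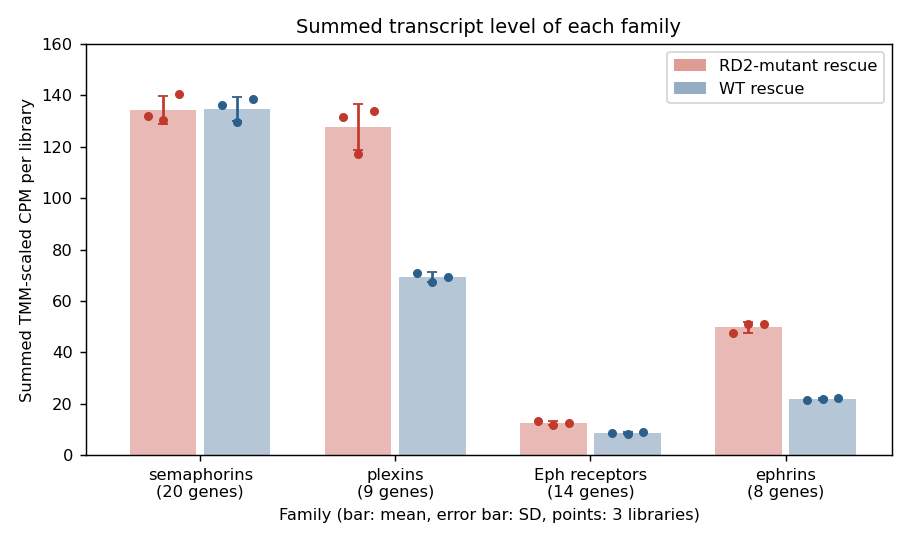
Bars are the mean summed TMM-scaled CPM of each family, with points for the 3 libraries and error bars for the SD, RD2-mutant rescue in red and WT rescue in blue. Plexins and ephrins are higher in the RD2-mutant rescue, at 127.6 and 49.8 CPM against 69.4 and 21.9 CPM in the WT rescue, while the semaphorin bars are level.

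Genes that act with these families were read from 4 lists. On the list of semaphorin and plexin co-receptors, 9 of 14 genes were tested, of which 5 rose, 3 fell and 1 did not pass (median log2 0.24, next to 0.010 for all tested genes), with 70.1% of all tested genes called, 35.4% higher and 34.8% lower. One of the 5, NRCAM, had 12, 23 and 16 counts in the RD2-mutant rescue and 6, 4 and 6 in the WT rescue, so it passed the filter on low counts through the RD2-mutant libraries alone and had to differ to be tested. CD72, an inhibitory B cell receptor that is bound by semaphorin 4D, rose 2.05-fold, to 217 ± 5.07 CPM in the RD2-mutant rescue against 106 ± 3.36 CPM in the WT rescue (edgeR adjusted p = 4.36e-16). Neuropilin 2 (NRP2) rose 1.33-fold, to 14.1 ± 0.899 CPM in the RD2-mutant rescue against 10.6 ± 0.178 CPM in the WT rescue (edgeR adjusted p = 5.92e-05), while NRP1 was at or near 0. The receptor kinase gene MET, a partner of B-type plexins, fell 1.81-fold to 9.82 ± 0.732 CPM in the RD2-mutant rescue against 17.8 ± 0.777 CPM in the WT rescue (edgeR adjusted p = 2.21e-09). PTK7, an inactive receptor kinase, rose 3.48-fold to 2.85 ± 0.115 CPM in the RD2-mutant rescue against 0.818 ± 0.112 CPM in the WT rescue (edgeR adjusted p = 1.98e-08). The cell adhesion receptor gene ITGB1 also rose (log2 0.24, edgeR adjusted p = 0.000355). The receptor kinase genes MST1R (log2 -0.44, edgeR adjusted p = 0.00102) and ERBB2 (log2 -0.28, edgeR adjusted p = 0.0180) fell. By DESeq2, 2 co-receptors fell in place of 3.

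On the list of plexin effectors, 28 of 35 genes were tested, of which 10 rose, 6 fell and 12 did not pass (median log2 0.046). The 57.1% called is below the 70.1% of all tested genes, a difference that was not tested. The guanine nucleotide exchange factor genes ARHGEF12 and ARHGEF11, which act downstream of B-type plexins, both rose. ARHGEF12 was at 152 ± 7.86 CPM in the RD2-mutant rescue and 80.4 ± 3.26 CPM in the WT rescue (1.89-fold, edgeR adjusted p = 4.29e-14), and ARHGEF11 at 6.67 ± 0.435 CPM in the RD2-mutant rescue and 2.11 ± 0.432 CPM in the WT rescue (3.16-fold, edgeR adjusted p = 7.48e-10). The tyrosine kinase gene FES rose 5.69-fold to 2.77 ± 0.352 CPM in the RD2-mutant rescue against 0.482 ± 0.120 CPM in the WT rescue (edgeR adjusted p = 2.16e-09). PAK1, a kinase downstream of RAC, fell 2.06-fold to 4.199 ± 0.115 CPM in the RD2-mutant rescue against 8.64 ± 0.394 CPM in the WT rescue (edgeR adjusted p = 5.78e-09). The GTPase genes RHOA and RAC1 did not pass the test, with log2 values of 0.055 and -0.0064.

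On the list of Eph and ephrin effectors, 36 of 40 genes were tested, of which 16 rose, 10 fell and 10 did not pass (median log2 0.081). The 72.2% called is close to the 70.1% of all tested genes. GRIP1, a scaffold that binds B-type ephrins, rose 7.604-fold to 8.12 ± 0.237 CPM in the RD2-mutant rescue against 1.06 ± 0.0711 CPM in the WT rescue (edgeR adjusted p = 4.26e-14). The exchange factor gene VAV3 rose 1.60-fold to 95.2 ± 3.53 CPM in the RD2-mutant rescue against 59.4 ± 2.71 CPM in the WT rescue (edgeR adjusted p = 9.43e-12). The SRC family kinase gene LYN fell 1.52-fold to 308 ± 11.0 CPM in the RD2-mutant rescue against 469 ± 15.8 CPM in the WT rescue (edgeR adjusted p = 1.58e-12), and the adaptor gene SLA fell 1.66-fold to 122 ± 3.83 CPM in the RD2-mutant rescue against 203 ± 5.90 CPM in the WT rescue (edgeR adjusted p = 1.18e-13).

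Other guidance cues, the netrins, slits, repulsive guidance molecules and their receptors and partners, were mostly silent, with 6 of 24 genes tested, of which 4 rose and 2 did not pass (median log2 0.66), 66.7% called next to 70.1% of all tested genes. Of all tested genes, 35.4% were called higher and 34.8% lower. By edgeR 0 of the 6 tested guidance genes fell, also at an unadjusted p under 0.05 and by DESeq2 on the same libraries. With 6 genes this is a description only. SRGAP2, a GTPase-activating partner of ROBO receptors, was at 168 ± 0.467 CPM in the RD2-mutant rescue and 96.2 ± 3.08 CPM in the WT rescue (1.74-fold, edgeR adjusted p = 1.88e-14), and its near-identical copies may share reads. SLIT1 rose 2.21-fold to 5.82 ± 0.721 CPM in the RD2-mutant rescue against 2.63 ± 0.292 CPM in the WT rescue (edgeR adjusted p = 1.46e-07), the receptor gene NEO1 1.46-fold to 21.1 ± 0.715 CPM in the RD2-mutant rescue against 14.4 ± 1.33 CPM in the WT rescue (edgeR adjusted p = 5.88e-07) and its ligand gene RGMB 1.70-fold to 2.48 ± 0.0791 CPM in the RD2-mutant rescue against 1.45 ± 0.490 CPM in the WT rescue (edgeR adjusted p = 0.00169).

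**Figure D5:**
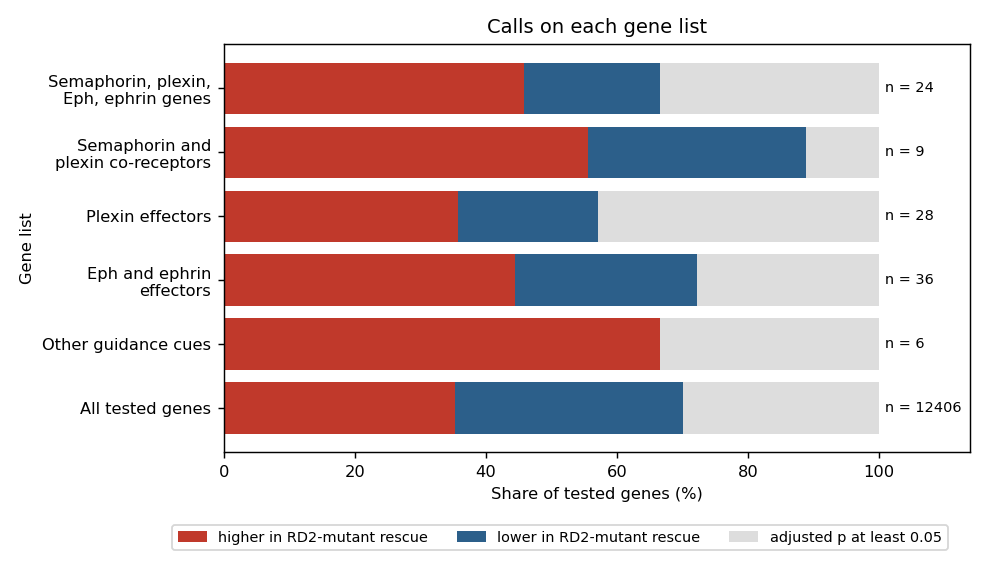
Bars give the share (%) of tested genes called higher, called lower or not called in the RD2-mutant relative to the WT rescue, for the 4 families together, the 4 lists and all tested genes, with the number tested at the right. The plexin effector list has 16 of 28 genes (57.1%) called, next to 70.1% of all tested genes, a difference that was not tested.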

How the data were processed

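RNA sequencing was done on 6 samples of OCI-LY1, 3 per rescue. The submitters' processing notes name CASAVA 1.8.2, STAR, edgeR and the build hg19. How reads were assigned to genes (program, annotation, strand, multi-mapped reads) was not given in the sources used here. Deposited values are unnormalized counts by gene symbol for each sample.

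Counts were compared in R 4.3.3 with edgeR 4.0.16: filterByExpr at its defaults (12406 of 23250 genes kept), TMM scaling, robust quasi-likelihood fit and test of RD2-mutant over WT rescue, and Benjamini-Hochberg adjustment over all tested genes at 0.05. The SE is the log2 fold change divided by the root of the F statistic. A permutation test of 3 against 3 libraries cannot go below 0.1, so none was used. The test was tried on simulated counts. Transcript lengths are those of the longest coding GENCODE v29 transcript.

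All tested members are named, and up to 4 genes with the smallest p per list; others named were chosen after their values were seen. Members and lists were chosen with earlier results of these data known. Also tried were scaling by RLE, by upper quartile or by library size alone, DESeq2 1.42.0, other filters and expression limits, a replicate block, glmTreat at 1.2-fold, family sums without the most abundant gene, and leaving out each library. Replicate pairs differed by more than counting noise (chi-square per degree of freedom of 1.60 to 5.47), so all 6 libraries were kept.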

Additional observations from a re-analysis of the deposited data

How the results depend on the processing

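Of 24 tested genes, 17 kept their direction and their side of the threshold in all alternatives that tested them. These include 13 of the 16 called genes. EFNB3, EPHB4 and SEMA3F, which are among the 17, were tested in 13 alternatives and not in 14. They dropped out where at least 1 CPM was required in all libraries. EFNB3 also passed the main filter through the RD2-mutant libraries alone. The exceptions among called genes were SEMA4D, SEMA6C and PLXNA1, given above. Leaving out libraries reversed only genes that had not passed: SEMA4G (-0.0043 in place of 0.14, without RD2-mutant library 3; range -0.0043 to 0.22) and SEMA6B (0.15 and 0.14 in place of -0.089, without RD2-mutant library 2 or WT library 3; range -0.30 to 0.15). The number of members called was 9 to 13 higher and 4 to 6 lower over all settings. With at least 1 CPM required in all libraries, 3 co-receptors rose in place of 5, since fewer genes were tested. Against a minimum change of 1.2-fold (glmTreat), 7 plexin effectors rose and 3 fell in place of 10 and 6. By the same test 9 Eph and ephrin effectors rose and 5 fell in place of 16 and 10. By DESeq2, 7 plexin effectors rose in place of 10, and 11 Eph and ephrin effectors rose in place of 16. Both methods called 2 co-receptors lower in place of 3. Co-receptors that fell also numbered 2 without WT library 1, WT library 3 or RD2-mutant library 3. The semaphorin sum differed by -0.437 CPM, by 1.97 CPM with library size scaling and by -3.50 to 1.46 CPM with single libraries left out. Why its sign varied was not tested. Without SEMA4B, which rose while SEMA4A fell, the semaphorin sum differed by -34.8 CPM. Without their most abundant gene the differences were 44.7 CPM for plexins, 0.757 for ephrins and -2.24 for Eph receptors. The expressed genes numbered 21 at a limit of 0.5 CPM and 17 at 2 CPM. Replicate numbers are not stated to pair libraries. Between the groups, deviations of same-numbered libraries correlated at 0.14, 0.17 and -0.055, and those of differently numbered libraries at -0.18 to 0.073. With the number as a replicate block 12 members rose and 5 fell, PLXNA3 passing (log2 0.24, edgeR adjusted p = 0.0124, range 0.00104 to 0.594). Genes under about 1 CPM had few counts, so changes there may not be detectable.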
